A study of Mus musculus with 73 samples.

Results

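Adrenal glands of control mice were compared between the sexes at 6 weeks of age, a time at which puberty is under way and the male and female adrenal cortex come to differ. The comparison used 8 of the 73 libraries of the series, 4 from female (XX) controls and 4 from male (XY) controls, chosen by their sex, genotype and age labels and by no measured value. All 8 came from whole adrenals of mice labelled WT that received no treatment, and served as controls for Znrf3 cKO mice, in which the Cre driver SF-1:Cre removes Znrf3 from steroidogenic cells. The labels give no further allele for the controls and do not say whether a library is 1 mouse or a pool. The p-values therefore rest on the variation among these libraries, some or all of which may be technical. Control adrenals at 4 weeks (4 female and 4 male libraries) and at 12 weeks (4 female and 5 male libraries) were used only to ask how the sex difference stood at other ages. Replicate numbers below follow the order of the samples in the series and serve as names.

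The adrenal cortex makes steroid hormones from cholesterol, mineralocorticoids in the outer zona glomerulosa and glucocorticoids in the zona fasciculata beneath it, and surrounds the medulla, whose chromaffin cells make catecholamines. In mice an additional inner layer, the X zone, borders the medulla early in life. It disappears at puberty in males, a change driven by androgens, and persists longer in females. WNT signals from the capsule side maintain the zona glomerulosa and the cortical progenitors, and Znrf3, a ubiquitin ligase, removes WNT receptors from the cell surface.

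Levels are given as RPKM, reads scaled to the exon length of the gene and to the depth of the library, after the 8 libraries had been put on 1 common scale. Differences are female minus male on the scale of log2(RPKM + 1), with their standard errors, so that the change of a gene near or below 1 RPKM is understated. Only autosomal genes were tested. The libraries held 30138000 to 55378000 reads in females and 29325000 to 42176000 reads in males. In females 30510 to 31844 genes were above 0, against 28739 to 30051 in males. Sex-linked genes, which were not tested, matched the sex labels: Xist, the RNA of the inactive X chromosome, lay at 69.5 to 88.1 RPKM in females and 0.00509 to 0.0201 RPKM in males. The Y-linked Ddx3y lay at 0.00631 to 0.0593 RPKM in females and 15.5 to 29.0 RPKM in males. The cortex markers Star and Hsd3b1 lay at 1922 to 2383 and 7116 to 9522 RPKM in females and 2067 to 2939 and 4819.7 to 5904 RPKM in males. Znrf3 itself had 3.98, 5.05, 5.22 and 4.64 RPKM in the female libraries, against 3.67, 3.63, 4.11 and 5.16 RPKM in the male libraries, and did not pass the test (log2 difference 0.16 ± 0.11, adjusted p = 0.271). The labels name no batch, and one that went with sex could not be told apart from sex. Among protein-coding genes the median difference ran from -0.13 to 0.10 between the shortest and the longest of 5 equal classes of exon length, and the part of this trend in the differences below was not tested.

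A large share of genes differed between the sexes, most of them by little. Of 18978 autosomal genes that averaged 0.5 RPKM or more in either sex, 8441 passed an adjusted p of 0.05 (44.5%), 4281 higher in females (22.6%) and 4160 lower in females (21.9%). With the values on the authors' scale, on which each group had been scaled separately, the split was 3521 higher and 5206 lower. The median difference over all tested genes was 0.01, and 85.3% of the called genes differed by less than 2-fold on the log2(RPKM + 1) scale. At least 2-fold differences were found for 822 genes higher in females (4.33%) and 423 lower (2.23%). At least 8-fold differences were found for 119 higher and 4 lower. Of the 2-fold genes, 33.5% of those higher and 74.2% of those lower in females were protein-coding. Among all tested genes, 21% of the 13076 protein-coding genes were called higher and 24.9% lower in females. The shares were 41.6% and 4.03% for 298 provisional genes (class TEC) and 44.2% and 7.69% for 52 sense-intronic genes. They were 24.5% and 10.4% for 502 long intergenic RNA genes and 18.9% and 12% for 460 antisense genes. Every female library had more genes above 0 than any male library, and the part of this in the split was not tested. For 8077 genes (42.6%) the female and male libraries did not overlap, 4180 higher (22%) and 3897 lower (20.5%). Counts of list members below are read against the shares of 22.6% and 21.9%.

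Leading genes were taken from called, non-overlapping genes of at least 5 RPKM in the higher sex, with predicted genes left out. The genes left out may hold larger differences. Of those kept, the 15 with the largest excess in females were led by 2 steroid-metabolizing enzymes that were close to absent in males. Akr1d1, a reductase that turns steroids into their beta-reduced forms, had 517, 936, 835 and 296 RPKM in the female libraries, against 0.0192, 0.0345, 0.0526 and 0.01604 RPKM in the male libraries (log2 difference 9.16 ± 0.32, adjusted p = 7.82e-08). Akr1c18, the enzyme that inactivates progesterone and the standard marker of the mouse X zone, had 912, 3899, 811 and 150.2 RPKM in the female libraries, against 0, 0.0552, 0.328 and 4.23 RPKM in the male libraries (log2 difference 8.95 ± 0.92, adjusted p = 0.000131). The groups did not overlap for either gene, yet female replicate 2 stood highest and female replicate 4 lowest for both, and male replicate 4 stood above the other males for Akr1c18. Cyp2f2, a cytochrome P450 known for the oxidation of foreign compounds in lung and liver, had 173, 309, 157 and 97.2 RPKM in the female libraries, against 0.494, 0.346, 0.301 and 0.378 RPKM in the male libraries. The ratio of means was 485-fold (log2 difference 6.95 ± 0.29, adjusted p = 2.75e-07).

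**Figure D1:**
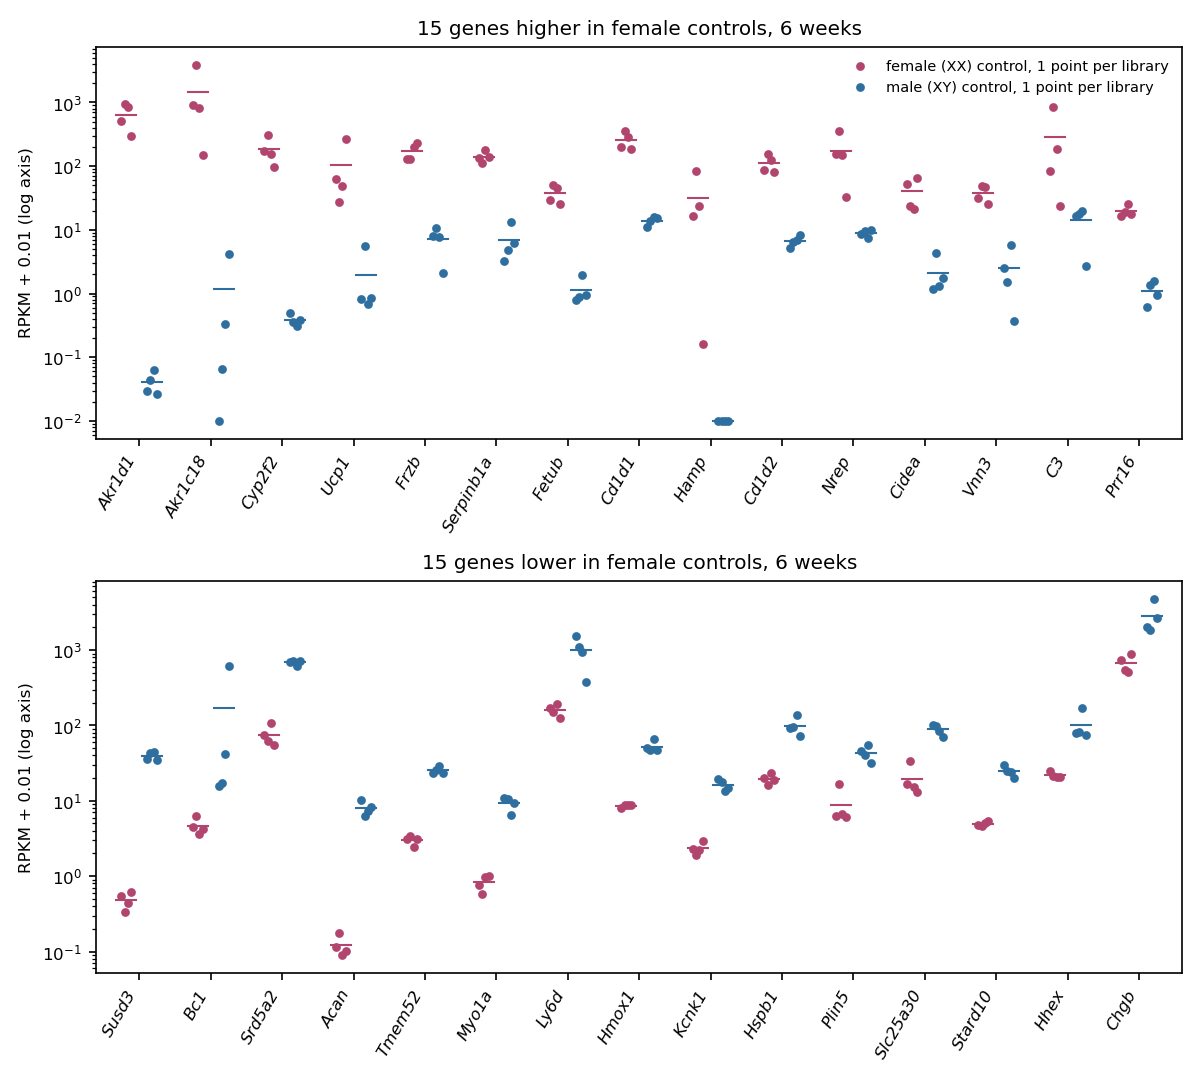
Levels in single libraries of the 15 genes with the largest difference in each direction, as RPKM + 0.01 on a log axis, with female controls left of male controls and a bar at each group mean. Predicted genes were left out of the choice. Akr1d1 lay between 296 and 936 RPKM in females and below 0.06 RPKM in males, and Susd3 between 0.320 and 0.610 RPKM in females and 35.1 to 44.3 RPKM in males.

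Other leading genes of this direction have varied known roles. Frzb, a secreted protein that binds WNT ligands away from their receptors, had 128, 131, 201 and 235 RPKM in the female libraries, against 7.97, 10.7, 7.85 and 2.11 RPKM in the male libraries, 24.3-fold higher (log2 difference 4.53 ± 0.40, adjusted p = 5.01e-05). Serpinb1a, an inhibitor of neutrophil proteases, had 132, 113, 179.7 and 141 RPKM in the female libraries, against 3.23, 4.76, 13.4 and 6.29 RPKM in the male libraries (log2 difference 4.31 ± 0.33, adjusted p = 2.22e-05). Fetub, a liver-type protease inhibitor, was 33.2 times as high in females, at 25.5 to 50.8 RPKM against 0.793 to 1.93 RPKM in males (log2 difference 4.15 ± 0.24, adjusted p = 2.87e-06). Cd1d1 and Cd1d2, near-identical genes whose products present lipids to natural killer T cells, lay at 189 to 351 and 80.6 to 157 RPKM in females and at 11.1 to 16.05 and 5.13 to 8.15 RPKM in males, and reads may have been split between them. Nrep had 152, 358, 147 and 32.6 RPKM in the female libraries, against 8.5995, 9.65, 7.54 and 9.96 RPKM in the male libraries (log2 difference 3.70 ± 0.59, adjusted p = 0.00139). Prr16 lay at 16.4 to 25.7 RPKM in females and 0.612 to 1.55 RPKM in males (log2 difference 3.29 ± 0.17, adjusted p = 1.50e-06). Vnn3, a pantetheinase of the vanin family, was at 25.1 to 49.6 RPKM in females and 0.359 to 5.79 RPKM in males (log2 difference 3.66 ± 0.45, adjusted p = 0.0003297).

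The remaining leaders were less even among females. C3, the central complement protein, had 85.4, 856, 185 and 23.3 RPKM in the female libraries, against 16.5, 18.04, 19.6 and 2.68 RPKM in the male libraries (log2 difference 3.43 ± 1.01, adjusted p = 0.0238). Its call was lost without female replicate 3 (adjusted p = 0.0580) and without male replicate 4 (0.0559), or with no filter on low values (0.0560). Hamp, the iron hormone hepcidin, had 16.6, 85.01, 24.1 and 0.151 RPKM in the female libraries and was listed at 0 in all 4 male libraries (log2 difference 3.85 ± 1.08, adjusted p = 0.0193), a call lost without female replicate 3 (adjusted p = 0.0514) and with precision weights on the recovered reads (0.197). Its close copy Hamp2 could share its reads. Female replicate 2 was the highest and female replicate 4 the lowest library for C3, Hamp and Nrep, as for Akr1c18. Ucp1 and Cidea, which complete the 15, are markers of brown fat and are described with the adipocyte genes.

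By the same rule, the 15 genes with the largest deficit in females were led by Susd3, a small membrane protein with a sushi domain. Susd3 had 0.532, 0.3196, 0.426 and 0.6101 RPKM in the female libraries, against 36.3, 42.99, 44.3 and 35.1 RPKM in the male libraries, 84.1-fold lower in females (log2 difference -4.79 ± 0.10, adjusted p = 3.86e-09), the smallest adjusted p of the named genes. Srd5a2, the reductase that makes the alpha-reduced forms of steroids, dihydrotestosterone among them, had 74.8, 61.6, 107 and 54.4 RPKM in the female libraries, against 701, 726, 612 and 712 RPKM in the male libraries, 9.22-fold lower in females (log2 difference -3.23 ± 0.19, adjusted p = 3.07e-06). Within a sex each of the 2 genes varied by less than 2-fold, and the groups were far apart. Acan, the cartilage proteoglycan aggrecan, had 0.105, 0.167, 0.0793 and 0.09104 RPKM in the female libraries, against 10.4, 6.28, 7.304 and 8.32 RPKM in the male libraries (log2 difference -3.01 ± 0.13, adjusted p = 3.35e-07).

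Several of the other male-high genes are known for ion transport, heme and lipid handling. Kcnk1, a potassium leak channel, had 2.29, 1.91, 2.23 and 2.88 RPKM in the female libraries, against 19.4, 17.5, 13.5 and 14.8 RPKM in the male libraries (log2 difference -2.37 ± 0.13, adjusted p = 1.65e-06). Hmox1, the heme-degrading enzyme, had 8.06, 8.73, 8.78 and 8.88 RPKM in the female libraries, against 49.5, 47.2, 65.98 and 46.7 RPKM in the male libraries (log2 difference -2.46 ± 0.11, adjusted p = 4.50e-07). Plin5, which coats lipid droplets next to mitochondria, had 6.37, 16.5, 6.65 and 6.07 RPKM in the female libraries, against 46.1, 40.01, 54.6 and 31.4 RPKM in the male libraries (log2 difference -2.24 ± 0.30, adjusted p = 0.000523). Females were below males in every library for these 3 genes. Slc25a30, a mitochondrial carrier, lay at 12.9 to 33.5 RPKM in females and 69.6 to 102 RPKM in males, and Stard10, a lipid transfer protein, at 4.62 to 5.32 RPKM in females and 20.4 to 29.8 RPKM in males. Hspb1, a small heat shock protein, had 20.2, 16.1, 23.3 and 18.7 RPKM in the female libraries, against 91.3, 94.2, 139.7 and 72.7 RPKM in the male libraries (log2 difference -2.26 ± 0.19, adjusted p = 3.59e-05). Ly6d, a surface protein of the LY6 family, was at 127 to 191 RPKM in females and 382 to 1529 RPKM in males. Tmem52 was at 2.397 to 3.396 RPKM in females and 23.3 to 29.2 RPKM in males. The brush border myosin Myo1a lay at 0.565 to 0.9904 RPKM in females and 6.44 to 10.8 RPKM in males, and the homeobox gene Hhex at 20.4 to 24.5 RPKM in females and 74.4 to 169 RPKM in males. Male replicate 3 was the highest male library for Hhex and Hspb1. Bc1, a short non-coding RNA of rodent neurons, had 4.49, 6.297, 3.67 and 4.23 RPKM in the female libraries, against 15.9, 17.5, 41.5 and 615 RPKM in the male libraries (log2 difference -3.26 ± 1.01, adjusted p = 0.0284). Its call was lost without female replicate 1, 3 or 4 (adjusted p = 0.0590, 0.0640 and 0.0572) or male replicate 3 (0.0508). It was lost too when low values were not filtered (0.0650) and with precision weights (0.102).

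Promoters of 2 leading genes of each direction are shown with the sites that bear on the tissue and on sex steroids. Each is 300 bases, 250 before and 50 after the RefSeq start of the gene, 5′ to 3′ on the strand of the gene, in the GRCm38.p6 build. Both strands were searched for AAGGTCA, the site of SF-1 (Nr5a1), the nuclear receptor of steroidogenic cells, and for AGAACA, the half-site bound by androgen and glucocorticoid receptors, and matches are in capitals. Akr1c18 (chr13:4150597-4150896, minus strand) and Cyp2f2 (chr7:27119705-27120004, plus strand) were higher in females, and Susd3 (chr13:49248245-49248544, minus strand) and Srd5a2 (chr17:74047811-74048110, minus strand) lower.
Akr1c18: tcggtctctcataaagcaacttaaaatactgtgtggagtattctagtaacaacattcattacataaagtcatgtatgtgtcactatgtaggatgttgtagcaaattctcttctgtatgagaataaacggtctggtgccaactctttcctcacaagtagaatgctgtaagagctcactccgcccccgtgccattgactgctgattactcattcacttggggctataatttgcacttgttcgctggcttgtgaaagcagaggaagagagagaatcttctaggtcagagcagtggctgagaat
Cyp2f2: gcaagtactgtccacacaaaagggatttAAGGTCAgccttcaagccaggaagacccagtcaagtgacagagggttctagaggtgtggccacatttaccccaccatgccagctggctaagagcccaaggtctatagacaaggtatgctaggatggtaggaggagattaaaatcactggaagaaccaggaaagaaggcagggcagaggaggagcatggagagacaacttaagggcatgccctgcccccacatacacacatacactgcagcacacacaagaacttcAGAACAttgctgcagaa
Susd3: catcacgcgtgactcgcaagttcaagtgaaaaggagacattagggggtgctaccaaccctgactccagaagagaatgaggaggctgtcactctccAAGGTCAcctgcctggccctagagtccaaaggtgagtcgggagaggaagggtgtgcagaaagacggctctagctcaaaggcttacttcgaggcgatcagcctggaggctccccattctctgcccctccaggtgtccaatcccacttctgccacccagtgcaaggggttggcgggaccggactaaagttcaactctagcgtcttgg
Srd5a2: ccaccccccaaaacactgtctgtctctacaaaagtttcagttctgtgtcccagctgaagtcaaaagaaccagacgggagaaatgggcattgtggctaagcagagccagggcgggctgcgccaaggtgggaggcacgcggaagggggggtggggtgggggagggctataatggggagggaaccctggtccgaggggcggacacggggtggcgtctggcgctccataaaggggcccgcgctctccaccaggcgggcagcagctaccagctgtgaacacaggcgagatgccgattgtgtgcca
The windows of Cyp2f2 and Susd3 each held 1 AAGGTCA on the gene's strand, starting at bases 29 and 96 of the window, and that of Cyp2f2 also held AGAACA at base 284. Of the 32851 promoters of the RefSeq table, 4.72% held AAGGTCA and 19.0% held AGAACA on either strand. The table matched 10775 of the 18972 tested gene symbols, and 211 of the 822 genes at least 2-fold higher and 227 of the 423 at least 2-fold lower in females, too few of each, so that a comparison of shares between genes that differed and other genes is void. A match is a description of the letters in the window, and its absence says nothing of a factor elsewhere.

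Genes of the X zone and of activin signalling, which is known to bear on the persistence of this zone, differed in both directions. Of 14 tested genes, 5 were higher and 1 lower in females, against 22.6% and 21.9% of all genes. The median difference was 0.13, against 0.01 over all genes. Besides Akr1c18, Pik3c2g, a lipid kinase that marks the X zone in mice, had 1.599, 15.5, 7.86 and 0.714 RPKM in the female libraries, against 0.00439, 0.00263, 0.00723 and 0.00367 RPKM in the male libraries (log2 difference 2.33 ± 0.63, adjusted p = 0.0164), with an adjusted p of 0.0704 under precision weights. Thrb, the thyroid hormone receptor of the beta type, had 12.9, 21.1, 16.98 and 7.69 RPKM in the female libraries, against 2.33, 2.78, 2.95 and 3.45 RPKM in the male libraries, 5.097-fold higher (log2 difference 1.94 ± 0.25, adjusted p = 0.000503). Acvr2a, an activin receptor, was at 6.12 to 8.49 RPKM in females and 3.203 to 4.82 RPKM in males (log2 difference 0.78 ± 0.12, adjusted p = 0.00122). Fstl3, a secreted protein that binds activins, went the other way, with 1.25, 1.25, 1.14 and 1.201 RPKM in the female libraries, against 4.71, 3.83, 3.26 and 4.05 RPKM in the male libraries (log2 difference -1.16 ± 0.09, adjusted p = 2.96e-05). The ranking of the female libraries was alike for the 3 X-zone genes Akr1c18, Pik3c2g and Thrb at its ends, with replicate 2 highest and replicate 4 lowest. Because of Akr1c18, the summed level of the list spanned 246 to 4001 RPKM among females and 63.5 to 82.3 RPKM among males. In whole adrenals, more cells of a type and more RNA per cell cannot be told apart.

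**Figure D2:**
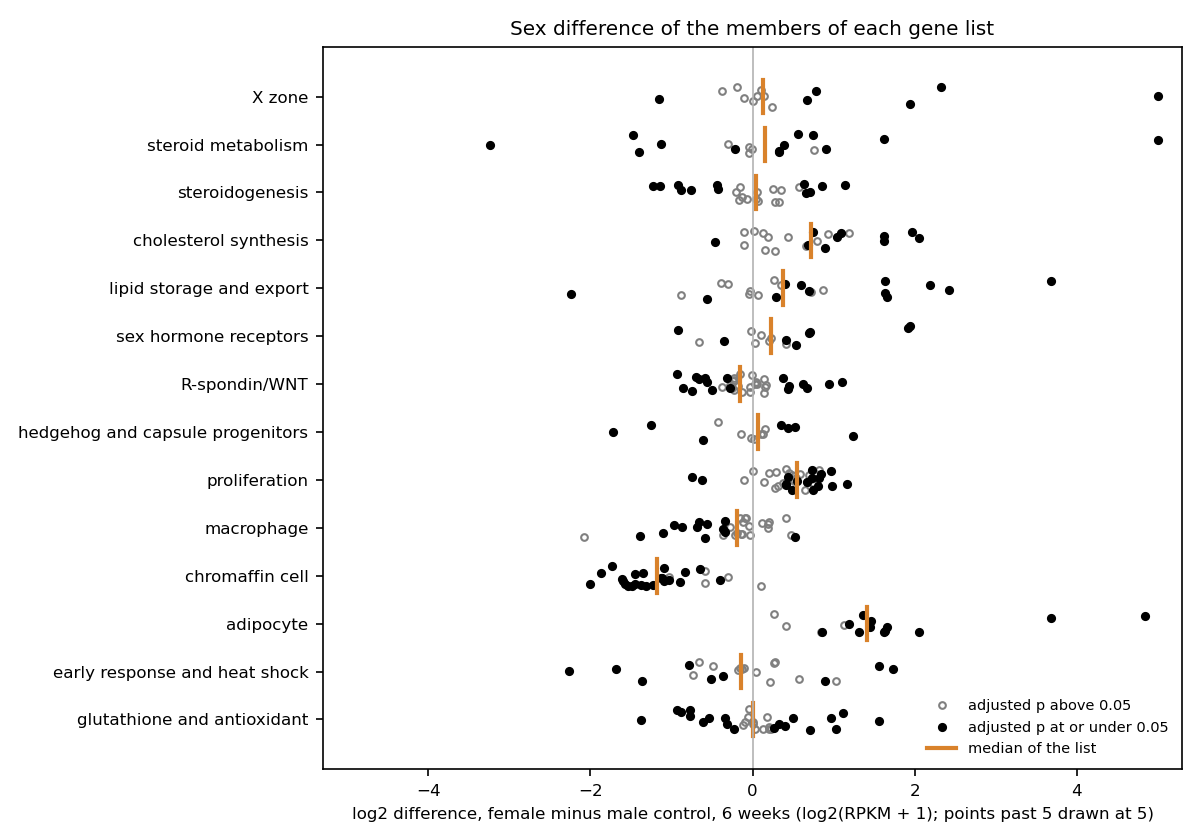
Female minus male difference on the log2(RPKM + 1) scale for the tested members of 14 gene lists, with filled points for genes past an adjusted p of 0.05, open points for the others and an orange bar at the median. Chromaffin genes lay to the left, with a median of -1.18, and adipocyte genes to the right, with a median of 1.41, and other lists had members on both sides.

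Steroid-metabolizing enzymes outside the main pathway were divided as well, 8 of 18 higher and 5 lower in females. The shares over all genes were 22.6% and 21.9%. The list median was 0.16. The alpha-reductases went in opposite directions: Srd5a1 had 13.1, 8.42, 10.3 and 13.3 RPKM in the female libraries, against 5.55, 7.27, 3.14 and 6.76 RPKM in the male libraries (log2 difference 0.91 ± 0.23, adjusted p = 0.0115), whereas Srd5a2, far more abundant in males, was lower in females. Hsd3b2 and Hsd3b3, minor copies of the Hsd3b family whose reads could be mixed with those of the abundant Hsd3b1, lay at 3.002 to 4.25 and 0.585 to 1.27 RPKM in females and 6.33 to 15.6 and 2.195 to 6.14 RPKM in males. Hsd17b7, which acts in estradiol and in cholesterol synthesis, had 4.94, 13.7, 5.08 and 4.07 RPKM in the female libraries, against 1.28, 1.32, 1.71 and 1.06 RPKM in the male libraries (log2 difference 1.63 ± 0.30, adjusted p = 0.00289).

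Genes of the route from cholesterol to corticosterone differed in both directions, at shares near the 22.6% and 21.9% over all genes. Of 25 tested steroidogenesis genes, 5 were higher and 7 lower in females, with a median of 0.05, which was -0.03 on the authors' scale and -0.01 with no filter on low values. In the comparisons at other ages 0 of 25 were higher and 3 lower at 4 weeks, and 6 of 26 higher and 1 lower at 12 weeks. Over all genes 12.4% were higher and 10.7% lower at 4 weeks, and 21.3% and 17.5% at 12 weeks. The lower members at 6 weeks included cholesterol uptake and the cutting of its side chain in mitochondria. Scarb1, the receptor for cholesterol from high-density lipoprotein, had 91.2, 133, 92.6 and 175 RPKM in the female libraries, against 278, 304, 290.0 and 245 RPKM in the male libraries (log2 difference -1.22 ± 0.20, adjusted p = 0.00154). Cyp11a1, the enzyme that cuts the side chain of cholesterol, had 801, 1197, 701 and 754 RPKM in the female libraries, against 1649, 1647, 1534 and 1399 RPKM in the male libraries (log2 difference -0.88 ± 0.16, adjusted p = 0.002997). Its electron donors were lower too, Fdx1 at 102 to 194 RPKM in females and 233 to 341 RPKM in males, and Fdxr at 246 to 301 RPKM in females and 429.6 to 497 RPKM in males. Akr1b7, which clears aldehydes left by the cutting of the side chain, was at 646 to 956 RPKM in females and 1122 to 2493 RPKM in males (log2 difference -1.14 ± 0.24, adjusted p = 0.00503), with an adjusted p of 0.0844 in 1 fit over the 25 control libraries of the 3 ages.

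The higher members were Hsd3b1, Cyp11b1, Mc2r, Pde8b and Lipe. Lipe acts in fat as well and is given with the lipid genes below, and the part of remaining fat in its difference was not tested. Hsd3b1, which acts on the product of Cyp11a1, had 8061, 7116, 9522 and 8493 RPKM in the female libraries, against 5074, 5468, 5904 and 4819.7 RPKM in the male libraries (log2 difference 0.64 ± 0.13, adjusted p = 0.00441), with an adjusted p of 0.392 when no filter on low values was set. Cyp11b1, which makes corticosterone in the zona fasciculata, had 2219, 2111, 2188 and 2712 RPKM in the female libraries, against 1366, 1629, 1328 and 1488 RPKM in the male libraries, 1.59-fold higher (log2 difference 0.66 ± 0.11, adjusted p = 0.00191). The corticotropin receptor Mc2r averaged 236 ± 56.4 RPKM in females and 142 ± 18.9 RPKM in males (SD, n = 4 each, log2 difference 0.71 ± 0.17, adjusted p = 0.00917). Pde8b, a phosphodiesterase that limits its second messenger, averaged 21.8 ± 3.42 RPKM in females and 9.28 ± 0.911 RPKM in males (log2 difference 1.14 ± 0.12, adjusted p = 0.000117). Levels that overlapped between the sexes were those of Star, the cholesterol carrier (log2 difference -0.15 ± 0.14, adjusted p = 0.3796), Cyp21a1 (log2 difference 0.06 ± 0.13, adjusted p = 0.737), Cyp11b2, the aldosterone synthase (log2 difference 0.28 ± 0.14, adjusted p = 0.144), and Nr5a1, which encodes SF-1 (log2 difference 0.35 ± 0.30, adjusted p = 0.371). The sign of the Cyp21a1 value turned on the authors' scale and without female replicate 4 or male replicate 1. Cyp17a1, whose product opens the way to androgens and is scarce in the mouse adrenal, was below 1 RPKM in all libraries, at 0.0766 to 0.271 RPKM in females and 0.311 to 0.815 RPKM in males (log2 difference -0.43 ± 0.13, adjusted p = 0.0235), a call lost without female replicate 2 or 3 or male replicate 1 (adjusted p = 0.0530, 0.0607 and 0.0661) and in the fit over 25 libraries (0.0984).

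**Figure D3:**
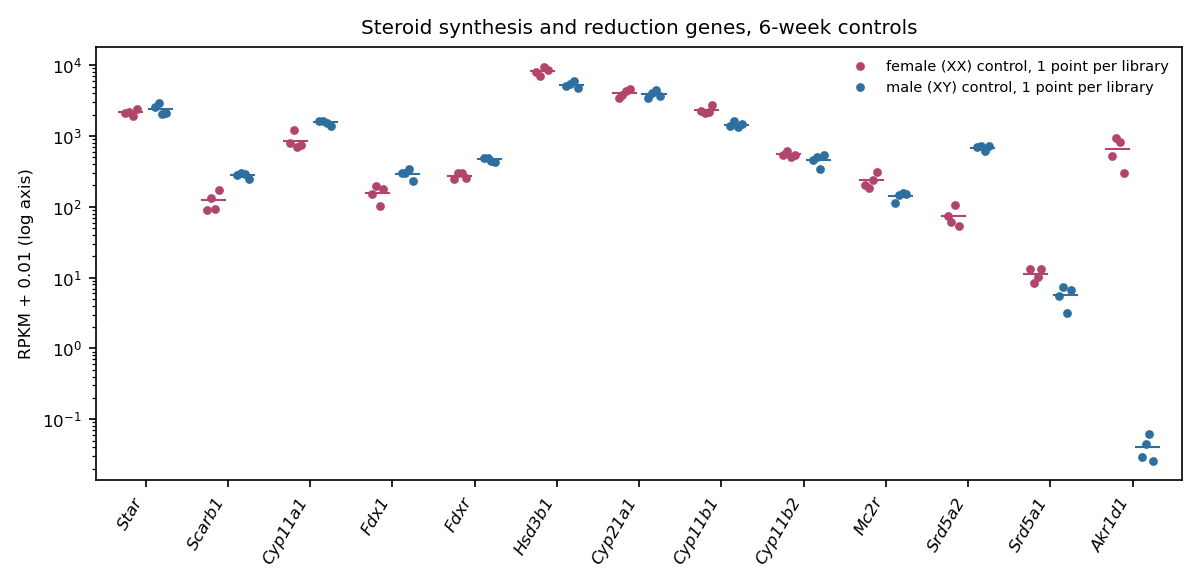
Levels in single libraries of 13 genes of steroid synthesis and reduction, as RPKM + 0.01 on a log axis, with female controls left of male controls and a bar at each group mean. Scarb1, Cyp11a1, Fdx1, Fdxr and Srd5a2 were lower in all 4 female libraries than in any male library, Hsd3b1, Cyp11b1, Mc2r, Srd5a1 and Akr1d1 were higher, and Star, Cyp21a1 and Cyp11b2 overlapped.

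Cholesterol synthesis genes were more often higher than lower in females. Of 22 tested genes 9 were higher and 1 lower, against 22.6% and 21.9% of all genes, with a median of 0.72. Hmgcs1, which starts the pathway, had 45.5, 93.4, 60.1 and 30.9 RPKM in the female libraries, against 11.7, 14.7, 10.96 and 14.5 RPKM in the male libraries (log2 difference 1.96 ± 0.29, adjusted p = 0.000894). Idi1 and the cholesterol carrier Stard4 had differences of 1.62 and 1.10 (adjusted p = 0.0121 and 0.00244). Female replicate 2 was highest for Hmgcs1 and Idi1. Without female replicate 4, the lowest for Hmgcs1 and Idi1, 14 members were called higher. Dhcr7, a late step, was the lower member, at 42.7 to 58.03 RPKM in females and 61.97 to 82.96 RPKM in males (log2 difference -0.47 ± 0.13, adjusted p = 0.0199), a call lost without female replicate 1 or 3 or male replicate 2 or 3 (adjusted p = 0.05003, 0.0512, 0.0551 and 0.0502) and in the fit over 25 libraries (0.205).

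Receptors for hormones that differ between the sexes were in part higher in females, 6 of 15 against 2 lower, with a median of 0.23. Over all genes 22.6% were higher and 21.9% lower. Prlr, the prolactin receptor, had 24.7, 27.6, 32.4 and 30.4 RPKM in the female libraries, against 6.73, 8.18, 5.11 and 7.76 RPKM in the male libraries, 4.14-fold higher (log2 difference 1.92 ± 0.14, adjusted p = 1.28e-05). Ghr, the growth hormone receptor, was at 5.54 to 8.02 RPKM in females and 3.12 to 3.72 RPKM in males (log2 difference 0.70 ± 0.11, adjusted p = 0.001498, and 0.0778 in the fit over 25 libraries). The membrane estrogen receptor Gper1 was lower, with 1.35, 0.938, 1.17 and 1.04 RPKM in the female libraries, against 2.67, 2.797, 2.71 and 3.89 RPKM in the male libraries (log2 difference -0.91 ± 0.11, adjusted p = 0.0003401). The angiotensin receptor Agtr1a differed by -0.35 (adjusted p = 0.0222), a call lost without female replicate 1 or 2 or male replicate 1 (adjusted p = 0.0593, 0.0520 and 0.0530) and in the fit over 25 libraries (0.163). Esr1, the nuclear estrogen receptor, was near 1 RPKM in both sexes (log2 difference 0.23 ± 0.14, adjusted p = 0.1998).

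WNT genes differed in both directions, at shares near the 22.6% and 21.9% over all genes. Of 37 tested R-spondin and WNT genes, 7 were higher and 10 lower in females, with a median of -0.16. Among receptors, Lgr4, a receptor of the R-spondins, had 36.3, 37.6, 42.6 and 32.5 RPKM in the female libraries, against 15.6, 15.99, 17.4 and 17.8 RPKM in the male libraries, 2.23-fold higher (log2 difference 1.11 ± 0.09, adjusted p = 2.56e-05). The frizzled gene Fzd4 was at 8.203 to 14.01 RPKM in females and 3.28 to 6.17 RPKM in males (log2 difference 0.95 ± 0.19, adjusted p = 0.00428). The co-receptor Lrp5 was lower, with 12.1, 13.8, 15.1 and 18.0003 RPKM in the female libraries, against 28.4, 29.4, 28.8 and 28.3 RPKM in the male libraries (log2 difference -0.93 ± 0.11, adjusted p = 0.000224). Apc, which destabilizes beta-catenin, was higher in females at 7.096 to 7.42 RPKM against 4.42 to 5.56 RPKM in males (log2 difference 0.44 ± 0.07, adjusted p = 0.00163).

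Several genes known as WNT targets were among the 10 lower members, a number near the share of lower genes in the whole comparison. Another 20 members passed in neither direction, known targets among them. WNT signalling itself was not measured. Axin2, the target used most often as a readout, had 7.75, 6.81, 7.08 and 7.11 RPKM in the female libraries, against 11.1, 10.5, 10.1 and 10.5 RPKM in the male libraries, 1.47-fold lower (log2 difference -0.50 ± 0.06, adjusted p = 0.000346). The transcription factor Tcf7 averaged 13.5 ± 1.97 RPKM in females and 25.1 ± 1.499 RPKM in males (SD, n = 4 each, log2 difference -0.86 ± 0.10, adjusted p = 0.0002699). Notum, a secreted inhibitor of WNT ligands, was at 0.809 to 1.34 RPKM in females and 2.02 to 2.75 RPKM in males, and Lgr5, a receptor and target, at 2.21 to 3.32 RPKM in females and 3.81 to 7.65 RPKM in males (adjusted p = 0.00222 and 0.0137). The differences of the ligand Wnt4 (-0.38), the agonist Rspo3 (-0.28), Ctnnb1, which encodes beta-catenin (-0.04), and Rnf43, the relative of Znrf3 (-0.18), did not pass (adjusted p = 0.192, 0.0601, 0.716 and 0.173). Frzb was not on this list.

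Hedgehog and capsule progenitor genes were 4 of 14 higher and 3 lower, against 22.6% and 21.9% of all genes. Their median was 0.06, which was -0.0016 on the authors' scale, -0.0013 with no filter on low values, -0.0030 without male replicate 3 and -0.015 without female replicate 3. Shh, the signal made by subcapsular progenitors, had 6.69, 5.38, 7.62 and 5.895 RPKM in the female libraries, against 11.4, 12.5, 24.4 and 20.8 RPKM in the male libraries (log2 difference -1.25 ± 0.23, adjusted p = 0.00277). Its target in the capsule, Gli1, was at 1.101 to 1.62 RPKM in females and 2.31 to 3.26 RPKM in males (log2 difference -0.61 ± 0.11, adjusted p = 0.00248). Dlk1 encodes a membrane protein, and its source among cortex, capsule and medulla was not tested. It had 33.6, 25.9, 27.6 and 40.7 RPKM in the female libraries, against 90.1, 77.7, 148 and 121 RPKM in the male libraries (log2 difference -1.72 ± 0.21, adjusted p = 0.000369). These 3 genes were lower in every female library than in any male library. Cited2, a coactivator needed for adrenal formation in mice, was higher, at 21.7 to 32.998 RPKM in females and 8.03 to 13.03 RPKM in males (log2 difference 1.24 ± 0.16, adjusted p = 0.000446).

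Proliferation genes were more often higher than lower in females, but the calls hung on single libraries. Of 40 tested genes, 15 were higher and 2 lower, against 22.6% and 21.9% of all genes, with a median of 0.54. Mki67 had 3.69, 5.64, 4.83 and 13.98 RPKM in the female libraries, against 2.59, 3.76, 2.54 and 2.101 RPKM in the male libraries (log2 difference 0.96 ± 0.32, adjusted p = 0.0389). Top2a was at 3.18 to 12.2 RPKM in females and 1.69 to 2.67 RPKM in males (log2 difference 0.98 ± 0.33, adjusted p = 0.0387). Female replicate 4 stood well above the other females for both. Pcna, the clamp of DNA replication, averaged 35.6 ± 10.4 RPKM in females and 20.4 ± 1.01 RPKM in males (SD, n = 4 each, log2 difference 0.74 ± 0.17, adjusted p = 0.00731). Bub1b, a spindle checkpoint gene, was at 3.301 to 7.19 RPKM in females and 0.874 to 2.704 RPKM in males. Ccnd2, a cyclin of early cell cycle, was lower at 23.6 to 35.7 RPKM in females against 39.8 to 55.4 RPKM in males (log2 difference -0.62 ± 0.14, adjusted p = 0.00714). The count of higher members was 5, 8, 5 and 4 without male replicate 1, 2, 3 and 4, 8 without female replicate 2 and 10 without female replicate 3. Without female replicate 4 it was 17, with a median of 0.30. With no filter on low values it was 4, and on the authors' scale 9. The call of Mki67 was lost without female replicate 2 or 3 or male replicate 1, 3 or 4, with adjusted p between 0.0501 and 0.0845. That of Top2a was lost without female replicate 2 or any of the 4 male replicates, between 0.0553 and 0.0818.

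Macrophage genes were mostly lower in females where they differed, 11 of 31 against 1 higher, with a median of -0.19. Over all genes 21.9% were lower and 22.6% higher. Cd74, the invariant chain of antigen presentation, had 103, 113, 108 and 117 RPKM in the female libraries, against 201, 221, 252 and 198 RPKM in the male libraries (log2 difference -0.97 ± 0.09, adjusted p = 6.56e-05). C1qa, a complement gene of tissue macrophages, had 36.9, 41.1, 38.7 and 45.2 RPKM in the female libraries, against 53.1, 58.2, 80.8 and 73.1 RPKM in the male libraries (log2 difference -0.68 ± 0.13, adjusted p = 0.00381). Tyrobp, a signalling adaptor of myeloid cells, was at 22.4 to 24.5 RPKM in females and 31.4 to 37.6 RPKM in males (log2 difference -0.56 ± 0.07, adjusted p = 0.000316). The groups did not overlap for these genes. Itgam was the member that was higher, at 0.5903 to 0.9603 RPKM in females and 0.166 to 0.346 RPKM in males. The summed level of the list was 511 to 659 RPKM in females and 901 to 1154 RPKM in males. Of the phagocytosis genes 5 of 26 were higher and 4 lower, and of the senescence genes 4 of 26 were higher and 6 lower, close to the shares over all genes. The interferon response genes were 2 of 28 higher and 1 lower, with 3 lower without female replicate 4. Cpa3, a mast cell protease, had 15.8, 8.56, 3.95 and 2.69 RPKM in the female libraries, against 1.57, 1.56, 1.57 and 1.12 RPKM in the male libraries (log2 difference 1.59 ± 0.41, adjusted p = 0.0137).

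Genes of the medulla were lower in females. Of 28 chromaffin genes 23 were lower and 0 higher in females, against 21.9% and 22.6% over all genes. Their median was -1.18. In the comparisons at other ages 16 of 27 were lower at 4 weeks and 21 of 28 at 12 weeks. The shares of all genes called lower at these ages were 10.7% and 17.5%. Th, the first enzyme of catecholamine synthesis, had 129.8, 82.5, 83.5 and 164 RPKM in the female libraries, against 291, 254, 716 and 354 RPKM in the male libraries (log2 difference -1.74 ± 0.34, adjusted p = 0.00392). Dbh, a later step, was at 56.4 to 129 RPKM in females and 173 to 381 RPKM in males (log2 difference -1.54 ± 0.32, adjusted p = 0.00467). Pnmt, which makes adrenaline, had 77.8, 51.8, 41.9 and 109 RPKM in the female libraries, against 169, 162, 235 and 234 RPKM in the male libraries (log2 difference -1.57 ± 0.28, adjusted p = 0.002499). The secretory granule proteins Chga and Chgb were lower as well: Chga averaged 360.1 ± 67.8 RPKM in females and 1104 ± 223 RPKM in males, and Chgb 673 ± 182 RPKM in females and 2833 ± 1334 RPKM in males (SD, n = 4 each). Npy, a peptide released with catecholamines, lay at 81.99 to 231 RPKM in females and 391 to 1281 RPKM in males (log2 difference -1.87 ± 0.43, adjusted p = 0.00819). Male replicate 3 was the highest library for Th, Dbh, Chga, Chgb and Npy. Phox2a, a transcription factor of the lineage, had 4.52, 3.305, 3.26 and 3.13 RPKM in the female libraries, against 10.6, 10.4, 18.02 and 12.9 RPKM in the male libraries (log2 difference -1.60 ± 0.17, adjusted p = 0.000159). The summed level of the list was 1399.5 to 2442 RPKM in females and 4832 to 9458 RPKM in males, and no member was at 0 in all libraries. Leaving out any 1 library left 21 to 23 members lower. The part of the medulla genes in other male-high genes was not tested.

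**Figure D4:**
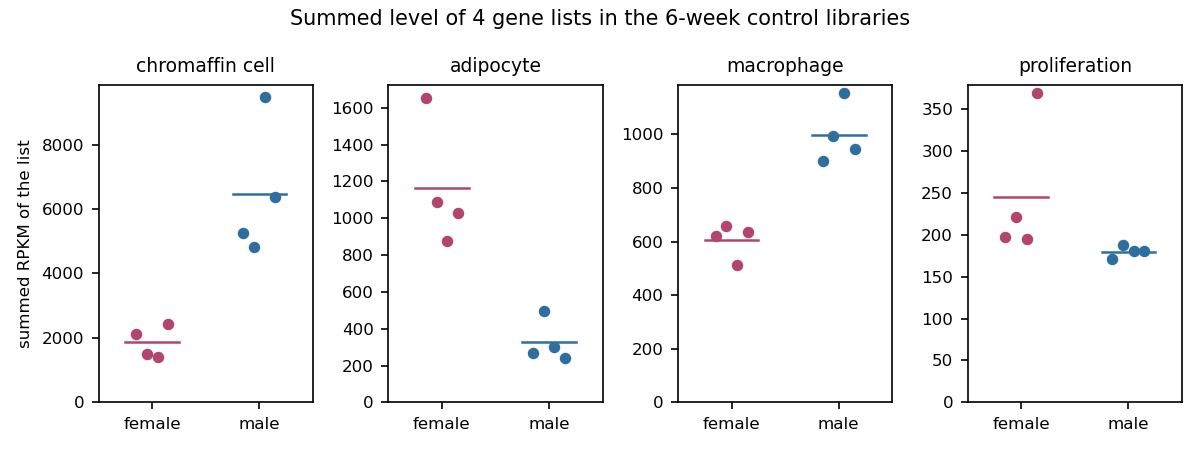
Summed RPKM of 4 gene lists in the 6-week control libraries, with 1 point per library, female left of male and a bar at each mean. Chromaffin and macrophage sums were lower in all 4 female libraries than in any male library, adipocyte and proliferation sums were higher, and 1 female library, at 369 RPKM, stood above the rest for proliferation.

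Fat cell genes went the opposite way. Of 16 adipocyte genes, 12 were higher in females and 0 lower, against 22.6% and 21.9% of all genes. Their median was 1.41, and the summed level was 876 to 1655 RPKM in females and 240.3 to 499 RPKM in males. Ucp1, the uncoupling protein of brown fat, had 63.9, 27.3, 49.2 and 269.9 RPKM in the female libraries, against 0.815, 5.48, 0.6702 and 0.851 RPKM in the male libraries (log2 difference 4.85 ± 0.69, adjusted p = 0.000775). Cidea, a lipid droplet protein of brown fat, had 53.4, 24.1, 21.2 and 64.1 RPKM in the female libraries, against 1.17, 4.26, 1.31 and 1.77 RPKM in the male libraries (log2 difference 3.68 ± 0.41, adjusted p = 0.000197). Adipoq, the fat cell hormone adiponectin, had 77.9, 41.2, 40.6 and 55.5 RPKM in the female libraries, against 14.3, 34.3, 18.5 and 7.13 RPKM in the male libraries (log2 difference 1.63 ± 0.41, adjusted p = 0.0117). Pparg, the regulator of fat cell formation, was at 3.34 to 5.601 RPKM in females and 0.739 to 1.84 RPKM in males (log2 difference 1.37 ± 0.19, adjusted p = 0.000697). Male replicate 2 was the highest male library for all 4 genes. At 4 weeks 1 of the 16 was called higher in females and at 12 weeks 0, with 0 lower at both ages. Over all genes 12.4% were called higher and 10.7% lower at 4 weeks, and 21.3% and 17.5% at 12 weeks. Summed levels spanned 1247 to 1820 RPKM in females and 928 to 1694 RPKM in males at 4 weeks, and 431 to 3755 and 347 to 3370 RPKM at 12 weeks. None of the 4 named genes passed the test of a change of the sex difference with age, so the ages were not shown to differ. No member was at 0 in all libraries. Per the study's methods, excess fat was taken off the adrenals. How much remained on each is not given, and its part in the genes of this and the next paragraph was not tested.

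Lipid storage and export genes overlapped with the fat cell list in 4 members. Of 22 tested genes 10 were higher and 2 lower in females, against 22.6% and 21.9% of all genes, with a median of 0.37. Of the 18 that were not on the fat cell list 7 were higher and 2 lower, with a median of 0.32. Lipa, the lysosomal lipase that frees cholesterol from its esters, had 116, 124, 123 and 100.4 RPKM in the female libraries, against 38.4, 40.2, 33.5 and 34.6 RPKM in the male libraries, 3.17-fold higher and even within each sex (log2 difference 1.63 ± 0.09, adjusted p = 2.13e-06). Cd36, a fatty acid transporter also made by fat cells, had 131, 71.6, 118 and 165 RPKM in the female libraries, against 13.4, 27.4, 21.4 and 24.1 RPKM in the male libraries (log2 difference 2.42 ± 0.28, adjusted p = 0.000236). Dgat2, which makes triglycerides, was at 20.3 to 61.95 RPKM in females and 4.81 to 13.8 RPKM in males (log2 difference 2.19 ± 0.36, adjusted p = 0.00172). Lipe, which frees cholesterol and fatty acids from stores in cortex and fat, averaged 24.2 ± 4.07 RPKM in females and 12.9 ± 1.904 RPKM in males (SD, n = 4 each, log2 difference 0.85 ± 0.14, adjusted p = 0.00159). Fabp4, a fat cell protein, lay at 80.4 to 169 RPKM in females and 24.3 to 59.1 RPKM in males.

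Stress genes differed in both directions. Of 22 early response and heat shock genes 3 were higher and 6 lower in females, against 22.6% and 21.9% of all genes. Fos and Egr1, which are induced within minutes of stimulation, were higher. Fos had 7.45, 11.9, 10.9 and 6.81 RPKM in the female libraries, against 0.484, 2.97, 6.72 and 0.839 RPKM in the male libraries (log2 difference 1.73 ± 0.48, adjusted p = 0.0175). Egr1 was at 10.9 to 21.2 RPKM in females and 1.97 to 7.96 RPKM in males (log2 difference 1.56 ± 0.34, adjusted p = 0.00669). In the fit over 25 libraries their adjusted p was 0.0928 and 0.0755. Jun was lower, with 30.6, 42.9, 26.4 and 19.6 RPKM in the female libraries, against 95.7, 102, 98.1 and 82.4 RPKM in the male libraries (log2 difference -1.68 ± 0.20, adjusted p = 0.000305), as was Hspb1. Among hypoxia and glycolysis genes 5 of 15 were higher and 6 lower: Bnip3, which targets mitochondria for removal, averaged 57.8 ± 8.19 RPKM in females and 24.1 ± 1.64 RPKM in males, and Vegfa, the growth factor of blood vessels, 113 ± 11.5 RPKM in females and 182 ± 14.3 RPKM in males (SD, n = 4 each, adjusted p = 4.57e-05 and 0.000544).

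Glutathione and antioxidant enzymes differed in both directions, 9 of 31 higher and 10 lower in females, against 22.6% and 21.9% of all genes. Their median was 0.01, which was -0.07 on the authors' scale. Gstm2, a glutathione transferase of the mu class, had 44.8, 52.2, 47.1 and 43.1 RPKM in the female libraries, against 139, 112, 131 and 111 RPKM in the male libraries (log2 difference -1.37 ± 0.09, adjusted p = 9.98e-06). Reads of this class may be shared among its close copies. Catalase (Cat) had 106, 139, 106 and 98.4 RPKM in the female libraries, against 44.99, 47.05, 61.9 and 51.3 RPKM in the male libraries (log2 difference 1.11 ± 0.13, adjusted p = 0.000282). The peroxide-reducing Prdx6 was at 48.996 to 61.2 RPKM in females and 24.9 to 27.3 RPKM in males (log2 difference 1.03 ± 0.08, adjusted p = 1.67e-05). The count of lower members was 6 without female replicate 1, female replicate 2, male replicate 1 or male replicate 2, and 6 with no filter on low values.

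Most genes that differed by at least 2-fold at 6 weeks differed in the same direction at the other ages, each tested on its own libraries. Of the 822 genes higher in females, 821 could be tested at 4 weeks, of which 798 were higher and 640 called higher, with 0 called lower, against 12.4% of all genes called higher at that age. At 12 weeks 810 could be tested, of which 779 were higher, 699 called higher and 2 called lower, against 21.3%. Their median difference was 1.29 at 4 weeks, 1.60 at 6 weeks and 1.44 at 12 weeks. Of the 423 genes lower in females, 416 could be tested at each age. At 4 weeks 399 were lower, 217 called lower and 1 called higher, against 10.7% of all genes called lower, and at 12 weeks 398 were lower, 363 called lower and 5 called higher, against 17.5%. Their median was -0.65 at 4 weeks, -1.25 at 6 weeks and -1.11 at 12 weeks. The genes were chosen by their size at 6 weeks, which favours larger values at that age. The labels name no batch at any age. One that went with sex at each age could not be told apart from a lasting sex difference.

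The change of the sex difference between 4 and 6 weeks was tested directly. It passed for 528 of 19845 genes (2.66%), 246 in which the female minus male difference was more positive at 6 weeks (1.24%) and 282 in which it was more negative (1.42%), and on the authors' scale for 210 and 453. Leaving out 1 library gave 280 to 806 genes: 280, 311, 314 and 310 without male replicate 1 or 2 or female replicate 3 or 4 at 6 weeks, 310, 301, 305 and 350 without male replicate 3 or 4 or female replicate 2 or 3 at 4 weeks, and 806 without male replicate 4 at 12 weeks. The rescaled RPKM of that library summed to 588880 over autosomal genes, against 438470 to 456600 in the other 4 males of that age. The 2.66% is the background for the genes named here, which were chosen by their p or by the 6-week comparison. Akr1d1 was at 127 to 376 RPKM in females, against 2.05 to 42.4 RPKM in males at 4 weeks, and the male level was below 0.06 RPKM at 6 weeks (difference of the sex differences 4.28 ± 0.76, adjusted p = 0.00403). Frzb had means of 143 RPKM in females and 36.4 RPKM in males at 4 weeks and 174 RPKM in females and 7.16 RPKM in males at 6 weeks (difference of the sex differences 2.51 ± 0.43, adjusted p = 0.00327). Serpinb1a had 107 RPKM in females and 40.2 RPKM in males at 4 weeks and 142 RPKM in females and 6.91 RPKM in males at 6 weeks (difference of the sex differences 2.96 ± 0.53, adjusted p = 0.00439). For these 3 genes the male level was lower at 6 than at 4 weeks and the female level was not lower. Akr1c18 had 3359.6 RPKM in females and 378 RPKM in males at 4 weeks, with the males between 2.79 and 994 RPKM, and its change did not pass (difference of the sex differences 3.73 ± 1.74, adjusted p = 0.276).

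For several male-high genes the male mean was higher at 6 weeks than at 4 weeks. Susd3 had means of 0.695 RPKM in females and 4.08 RPKM in males at 4 weeks and 0.472 RPKM in females and 39.7 RPKM in males at 6 weeks (difference of the sex differences -3.24 ± 0.39, adjusted p = 0.000284). Kcnk1 had 1.76 RPKM in females and 3.36 RPKM in males at 4 weeks and 2.33 RPKM in females and 16.3 RPKM in males at 6 weeks (difference of the sex differences -1.76 ± 0.26, adjusted p = 0.00114). Plin5 had 16.8 RPKM in females and 11.7 RPKM in males at 4 weeks and 8.91 RPKM in females and 43.03 RPKM in males at 6 weeks (difference of the sex differences -2.89 ± 0.64, adjusted p = 0.0174). Srd5a2 stood apart from these, with 52.8 RPKM in females and 466 RPKM in males already at 4 weeks (difference of the sex differences -0.57 ± 0.69, adjusted p = 0.731). Among the genes with the smallest p for this change were also 3 with a lower male mean at 6 weeks. Mgst3, a microsomal glutathione transferase, had 55.1 RPKM in females and 58.1 RPKM in males at 4 weeks, against 58.7 RPKM in females and 35.7 RPKM in males at 6 weeks. Aldh3b1, an aldehyde dehydrogenase, had 60.8 RPKM in females and 46.3 RPKM in males at 4 weeks and 75.8 RPKM in females and 22.04 RPKM in males at 6 weeks. Rapgef4, a cyclic AMP sensor, had 88.4 RPKM in females and 59.7 RPKM in males at 4 weeks and 119 RPKM in females and 31.3 RPKM in males at 6 weeks. Of those with a higher male mean at 6 weeks, Csf2ra, a cytokine receptor chain, had 16.5 RPKM in females and 12.96 RPKM in males at 4 weeks and 12.7 RPKM in females and 30.9 RPKM in males at 6 weeks. Prrt1 had 2.43 RPKM in females and 3.94 RPKM in males at 4 weeks and 2.27 RPKM in females and 9.33 RPKM in males at 6 weeks, and Zfp276 5.102 RPKM in females and 4.95 RPKM in males at 4 weeks and 4.29 RPKM in females and 7.46 RPKM in males at 6 weeks.

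**Figure D5:**
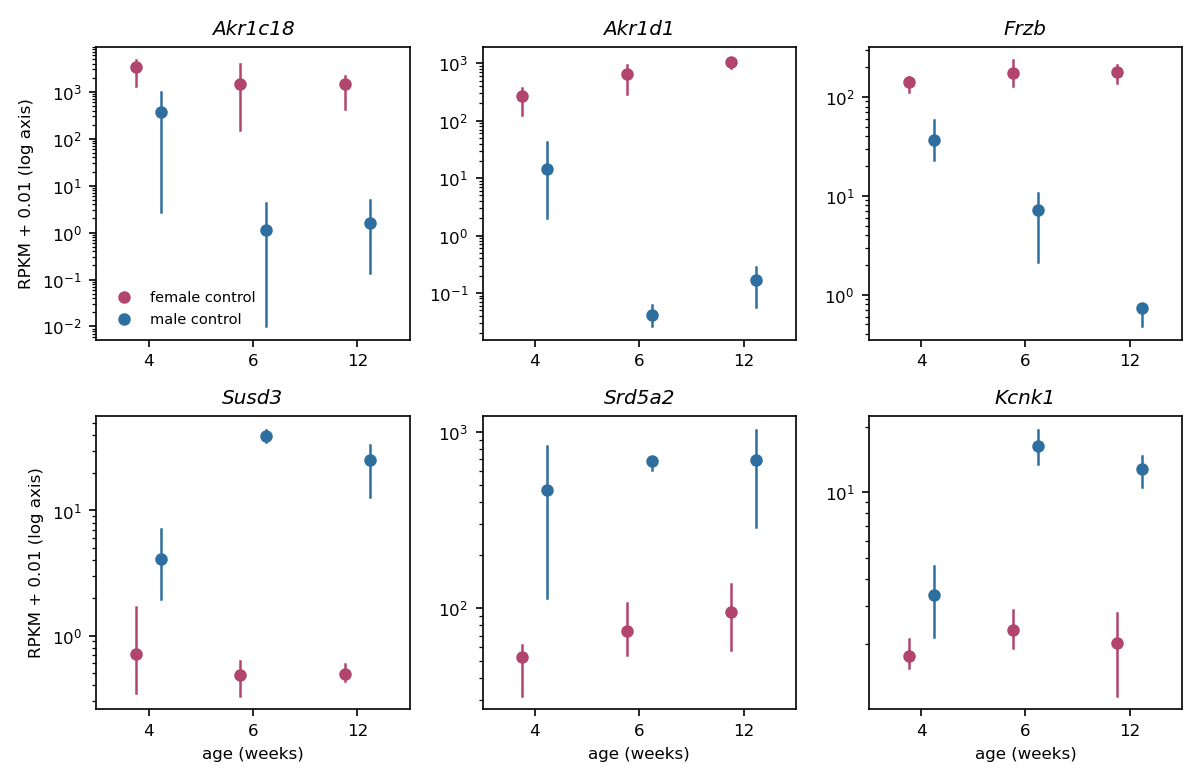
Mean level at 4, 6 and 12 weeks of 6 genes in female controls (left point at each age) and male controls (right point), as RPKM + 0.01 on a log axis, with lines from the lowest to the highest library. The male level of Akr1d1 and Frzb was lower and that of Susd3 and Kcnk1 higher at 6 than at 4 weeks, and Srd5a2 already differed at 4 weeks.

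Between 6 and 12 weeks fewer genes changed their sex difference, 221 of 19845 (1.11%), 106 more positive at 12 weeks (0.534%) and 115 more negative (0.579%), or 94 and 180 on the authors' scale and 120 and 275 with the libraries scaled to a common sum. Leaving out 1 library gave 121 to 433 genes: 126, 121, 372, 130 and 146 without male replicate 1, 2 or 4 or female replicate 1 or 4 at 6 weeks, and 433, 140, 134 and 128 without male replicate 4 or female replicate 2, 3 or 4 at 12 weeks. Frzb had 179 RPKM in females and 0.717 RPKM in males at 12 weeks (difference of the sex differences 2.18 ± 0.42, adjusted p = 0.0114). Nr2f6, a nuclear receptor, had 3.44 RPKM in females and 5.0001 RPKM in males at 6 weeks and 3.499 RPKM in females and 1.95 RPKM in males at 12 weeks (difference of the sex differences 1.07 ± 0.22, adjusted p = 0.0141). The zinc finger gene Zfp771 had 4.32 RPKM in females and 7.78 RPKM in males at 6 weeks and 4.08 RPKM in females and 2.599 RPKM in males at 12 weeks (difference of the sex differences 1.24 ± 0.22, adjusted p = 0.00578). The male level of both was higher at 6 weeks than at 4 weeks, where it was 1.52 and 2.40 RPKM, and at 12 weeks. Rpl23a, a ribosomal protein gene with many processed copies that could share its reads, had 25.4 RPKM in females and 59.4 RPKM in males at 6 weeks and 23.3 RPKM in females and 119.5 RPKM in males at 12 weeks (difference of the sex differences -1.08 ± 0.21, adjusted p = 0.0122). Zfp433 had 7.52 RPKM in females and 2.92 RPKM in males at 6 weeks and 6.44 RPKM in females and 4.67 RPKM in males at 12 weeks (difference of the sex differences -0.72 ± 0.16, adjusted p = 0.0262), a call lost without female replicate 1 or 4 or male replicate 3 at 6 weeks or female replicate 1 at 12 weeks (adjusted p = 0.0551, 0.0664, 0.0534 and 0.0648) and without a filter on low values (0.0544). The differences of Akr1d1, Akr1c18, Susd3 and Srd5a2 did not pass between 6 and 12 weeks (0.66, 0.20, 0.71 and 0.42).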

How the data were processed

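Whole adrenals were profiled by stranded poly(A) RNA sequencing. Per the labels and the study's methods, the authors made reads with bcl2fastq (2.17.1.14 in the labels, a later release in the methods), checked them with FastQC 0.11.7, trimmed them with cutadapt 3.2, aligned them to mm10 with HISAT2 2.2.1, counted them over genes with SummarizeOverlaps and tested with DESeq2 1.34.0. The deposited values were RPKM, computed by the authors from these counts, for 54838 genes, of which 50502 were autosomal. Whether strand was used in counting and which annotation release served are not given in the sources used here, so overlapping and antisense genes may share reads. The mitochondrial genes were at 0 in every library and were not used.

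Because each group had been scaled on its own, the libraries were rescaled together by median-of-ratios factors over 23229 autosomal genes (0.973 to 0.993 in females and 1.026 to 1.036 in males). The step of the RPKM values, with exon lengths, returned whole reads for 98.4 to 98.7% of values within 0.02 of a read, which gave the depths. Genes that averaged 0.5 RPKM or more in 1 compared group were tested on log2(RPKM + 1) with limma 3.58.1 (moderated statistics with a trend, R 4.3.3) and Benjamini-Hochberg adjustment at 0.05, a test tried on simulated data first. The 6-week comparison used its 8 libraries, and changes of the sex difference with age used 1 fit over 25 control libraries. Tables, lists and figures were made in Python 3.11.15 with pandas 2.3.3, numpy 2.4.6 and matplotlib 3.10.9. Precision weights (voom), other scalings, filters and pseudocounts and the omission of each library were tried as alternatives.

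Named genes were those checking the labels, the 15 per direction with the largest difference among called, non-overlapping genes of at least 5 RPKM in the higher sex, members of 27 gene lists (up to 4 with the smallest p, and those a description needed), and up to 6 per direction with the smallest p for a change with age. Predicted genes were left out of the largest, and a gene that this rule named is not reported here. The groups, members and lists were chosen with earlier results of these data known.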

Additional observations from a re-analysis of the deposited data

Results flagged for a closer look

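In 26 of 263 groups of 4 libraries (9.89%), the highest or lowest library stood far from the other 3 by Dixon's criterion, which chance meets in about 1 in 20 groups. Among female libraries, replicate 4 stood high for Top2a (12.2 RPKM), Bub1b (7.19 RPKM), Lmnb1, a lamin of cycling cells (12.0 RPKM), and Ucp1 (269.9 RPKM), and low for Loxl1 (3.197 RPKM). Female replicate 2 stood high for Plin5 (16.5 RPKM), Hsd17b7 (13.7 RPKM) and Rpl23a (32.3 RPKM). Female replicate 1 stood high for Phox2a (4.52 RPKM) and Ghr (8.02 RPKM), and female replicate 3 for Mgst3 (64.4 RPKM). Among male libraries, replicate 3 stood high for Npy (1281 RPKM), Hhex (169 RPKM), Hmox1 (66.0 RPKM) and Fetub (1.93 RPKM), and low for Sox18 (11.1 RPKM). Male replicate 4 stood high for Bc1 (615 RPKM), Thy1 (14.3 RPKM), Cd47 (13.9 RPKM), Akr1c18 (4.23 RPKM) and Gper1 (3.89 RPKM), and low for Aldh3b1 (15.8 RPKM) and Cpa3 (1.12 RPKM). Male replicate 2 stood high for Ucp1 (5.48 RPKM) and Pparg (1.84 RPKM), and male replicate 1 for Gli1 (3.26 RPKM).

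The sex difference of 28 named genes changed between 4 and 6 weeks by limma's interaction contrast, and the values below are the change of the female minus male difference on the log2(RPKM + 1) scale. It became more positive for Akr1d1 (4.28), Serpinb1a (2.96), Frzb (2.51), Vnn3 (2.25), Cd1d2 (1.76), Cd1d1 (1.67), Prr16 (1.51), Aldh3b1 (1.36), Rapgef4 (1.29), Lipa (0.95), Dock1 (0.93), Pde8b (0.88) and Mgst3 (0.77). It became more negative for Susd3 (-3.24), Plin5 (-2.89), Acan (-1.96), Slc25a30 (-1.86), Kcnk1 (-1.76), Tmem52 (-1.70), Hmox1 (-1.60), Csf2ra (-1.54), Stard10 (-1.19), Zfp771 (-1.19), Prrt1 (-1.15), Hsd3b3 (-1.13), Nr2f6 (-1.09), Hhex (-1.02) and Zfp276 (-0.71). Leaving out 1 of the 25 libraries ended the call for Hhex in 17 cases, Pde8b in 15, Hsd3b3 and Vnn3 in 12 each and Tmem52 in 9, with adjusted p up to 0.0950. The call of Lipa was lost without male replicate 3 or 4 at 4 weeks, that of Stard10 without male replicate 3 at 4 weeks or 1 at 6 weeks, that of Acan without these 3 libraries, and that of Dock1 without male replicate 4 at 4 weeks or male replicate 1 or female replicate 4 at 6 weeks, with adjusted p between 0.0508 and 0.0580. That of Cd1d1 and that of Prr16 were each lost without male replicate 3 or 4 at 4 weeks or male replicate 1 or female replicate 2 or 3 at 6 weeks, and Cd1d1 also without male replicate 2 and Prr16 without female replicate 4 at 6 weeks, with adjusted p between 0.0510 and 0.0768.

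The call of Acan was also lost with no filter on low values, a pseudocount of 0.1 and precision weights (adjusted p = 0.0552, 0.0824 and 0.397), as was that of Hsd3b3 (0.0813, 0.0606 and 0.107). That of Vnn3 was lost with no filter and a pseudocount of 0.1 (0.0822 and 0.0541), that of Tmem52 with no filter and precision weights (0.0626 and 0.0608), and that of Pde8b with no filter and after scaling to a common sum (0.0844 and 0.0564). Those of Cd1d1, Hhex and Prr16 were lost with no filter (0.0581, 0.0848 and 0.0687).

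Between 6 and 12 weeks the difference became more positive for Frzb (2.18), Zfp771 (1.24), Nr2f6 (1.07) and Zfp276 (0.46), and more negative for Rpl23a (-1.08) and Zfp433 (-0.72). The 2 changes of Zfp771, Nr2f6 and Zfp276 had opposite signs. Both tests use the same 6-week libraries, with opposite sign, so a shift in those libraries alone would give this pattern. The 2 calls of a gene are therefore not independent.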

How the results depend on the processing

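The number of genes called between the sexes at 6 weeks was 8441 and stayed between 6853 (without male replicate 2) and 8514 (without male replicate 4) when 1 library was left out. It was 8465 with a pseudocount of 0.1, 8216 with no filter on low values, 7917 after scaling to a common sum, 8459 with precision weights on the recovered reads and 7889 in 1 fit over the controls of all ages, and 1245 with at least a 2-fold difference. On the authors' scale the higher genes were 40.3% of the calls, against 50.7% after joint scaling. The median of all genes was -0.05 on the authors' scale, against 0.01 after joint scaling. The change between 4 and 6 weeks gave 528 genes, 280 to 806 with 1 library left out and 334 with no filter. The change between 6 and 12 weeks gave 221 genes, 121 to 433 with 1 library left out, 140 with no filter and 395 after scaling to a common sum, where 30.4% were more positive. On the authors' scale 31.7% and 34.3% of these 2 sets were more positive. The cause of these shifts was not tested.

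Of the 132 named genes, all kept their direction and their side of the threshold in the 6-week comparison with a pseudocount of 0.1 and with scaling to a common sum. The sign turned for Cyp21a1, which was not called, to -0.016 on the authors' scale, -0.0017 without male replicate 1 and -0.011 without female replicate 4, with 0.14 as the highest value with 1 library left out (female replicate 1). Calls were lost for 5 genes with no filter on low values, 3 with precision weights and 7 in the fit over all ages. Of the 28 called changes of named genes between 4 and 6 weeks, 8 were lost with no filter, 3 with a pseudocount of 0.1, 3 with precision weights and 1 after scaling to a common sum. No paired analysis was possible because the labels give the libraries no replicate numbers that the sexes share. With 4 libraries per sex, differences near the spread between libraries were not detectable, and genes near 1 RPKM carry few reads and understated differences.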

Other observations

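Circadian clock genes were 6 of 21 higher and 2 lower in females, against 22.6% and 21.9% of all genes, with a median difference of -0.07. The higher members were 3 without male replicate 1 or 3 or female replicate 3, with no filter on low values and on the authors' scale. The lower members were 1 without male replicate 1 or female replicate 3 and with no filter, and 4 on the authors' scale. The median was positive in 6 of the 8 fits with 1 library left out, up to 0.22 without female replicate 3. Rora, a nuclear receptor that activates clock genes, was at 10.4 to 18.5 RPKM in females and 3.83 to 6.19 RPKM in males (log2 difference 1.41 ± 0.18, adjusted p = 0.000437), and the repressor Nr1d2 at 23.2 to 41.7 RPKM in females and 11.9 to 19.2 RPKM in males (log2 difference 1.03 ± 0.19, adjusted p = 0.00294). Bhlhe40, another repressor, was at 14.3 to 23.8 RPKM in females and 7.72 to 14.3 RPKM in males (log2 difference 0.80 ± 0.19, adjusted p = 0.01004). The hour of collection is not given in the labels, and its part in these values was not tested.

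Genes of extracellular matrix remodelling were 3 of 18 higher and 4 lower, with 1 higher without male replicate 1 or 2 or female replicate 1. All counts of this paragraph are read against the 22.6% and 21.9% of all genes called higher and lower. Timp2, an inhibitor of matrix metalloproteinases, was at 21.04 to 27.3 RPKM in females and 44.7 to 65.2 RPKM in males (log2 difference -1.12 ± 0.12, adjusted p = 0.000192), and the laminin chain gene Lama1 at 1.82 to 2.71 RPKM in females and 3.29 to 4.58 RPKM in males (log2 difference -0.56 ± 0.12, adjusted p = 0.00512). Capsule and fibroblast genes were 1 of 20 higher and 3 lower, against 22.6% and 21.9% of all genes. The higher members were 3 without female replicate 4 and 0 without any 1 of the other 7 libraries. The summed level of the list overlapped between the sexes, at 649 to 1373 RPKM in females and 847 to 993 RPKM in males. The lower members included Loxl1, a cross-linker of elastic fibres, at 3.197 to 6.03 RPKM in females and 9.07 to 10.6 RPKM in males (log2 difference -0.78 ± 0.16, adjusted p = 0.00527), and Thy1, which neurons make too, at 2.88 to 3.46 RPKM in females and 5.31 to 14.3 RPKM in males (log2 difference -1.05 ± 0.25, adjusted p = 0.00859). Of pericyte and smooth muscle genes 1 of 10 was higher, Rgs5, at 12.6 to 19.1 RPKM in females and 8.06 to 11.7 RPKM in males (log2 difference 0.57 ± 0.14, adjusted p = 0.01203), and 4 were lower (2 without male replicate 1 and 1 without female replicate 3), the smooth muscle myosin Myh11 among them (log2 difference -0.51 ± 0.11, adjusted p = 0.004901). Endothelial genes were 0 of 19 higher and 3 lower (8 lower without male replicate 3, and 1 without male replicate 2 or 4 or female replicate 2 or 4, with no filter or after scaling to a common sum), the transcription factor Sox18 among them (log2 difference -0.70 ± 0.15, adjusted p = 0.00617), and Schwann cell genes 1 of 13 higher and 2 lower (5 lower without female replicate 1 or with precision weights).

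Of genes of leukocytes other than macrophages 4 of 13 were higher and 0 lower, 1 or 2 higher without any 1 of the libraries other than female replicate 4. All counts of this paragraph are likewise read against 22.6% higher and 21.9% lower over all genes. Red blood cell genes were 0 of 6 higher and 3 lower, with 5 lower without female replicate 1, and 1 lower without any 1 of the other female libraries or male replicate 2, 3 or 4, with no filter and in the fit over all ages. Gonad and kidney genes were 2 of 5 higher and 0 lower, with 1 higher without male replicate 1, 2 or 3 or female replicate 1 or 4. Phagocytosis genes were 5 of 26 higher and 4 lower, and Cd36, given above with the lipid genes, was also on this list and higher. Of the higher members, Cd47, a signal that holds phagocytes off, was at 19.5 to 26.7 RPKM in females and 9.25 to 13.9 RPKM in males (log2 difference 1.03 ± 0.14, adjusted p = 0.000621), and Dock1, which acts in engulfment, at 33.4 to 39.6 RPKM in females and 18.4 to 25.03 RPKM in males (log2 difference 0.82 ± 0.11, adjusted p = 0.000457). Lmnb1, whose loss marks senescent cells, was at 8.99 to 11.97 RPKM in females and 5.65 to 6.97 RPKM in males (log2 difference 0.59 ± 0.10, adjusted p = 0.002103).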
